A study of Mus musculus with 4 samples.

Results

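Lsm1 to Lsm8 encode the Sm-like (Lsm) proteins that build the ring-shaped RNA-binding complexes of the cell. The family was selected on the array signal of Lsm7, which was lower in dystrophic muscle that lacked MMP-2 than in dystrophic muscle that had it, at both ages sampled. A gene was counted as measured where at least 1 probe set of the array carried its symbol and no other gene symbol in the platform annotation. This held for 7 of the 8 listed genes, with 12 probe sets, out of 18193 genes named in this way. Lsm5 had no such probe set and has no value of its own here. Since Lsm7 was chosen for its genotype differences, these are given as a description of the arrays and carry no test.

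RNA came from tibialis anterior, a mostly fast-twitch hind limb muscle, and was hybridised to 4 Affymetrix mouse genome arrays. The groups were mdx/MMP-2-/- and mdx mice at 1 month, and mdx/MMP-2-/- and mdx mice at 3 months, all of strain C57BL/6J. The mdx allele, which removes dystrophin and is a standard model of Duchenne muscular dystrophy, was shared by all 4 groups. The -/- allele removes MMP-2, a secreted gelatinase. No array of wild-type muscle was analysed here. Each group had 1 array, so there was no spread between replicates, no difference below has a test or an error, and "higher" and "lower" describe single arrays. The labels do not say how many animals gave the RNA of an array, or of which sex they were.

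The deposited signals had 2% trimmed means of 90.4 to 122 and were brought to a common distribution by quantile scaling. Values below a floor of 17.4, the 50th percentile of signal, were raised to it for differences, and 12801 genes exceeded the floor on at least 1 array. Mmp2 had scaled signals of 24.7 in mdx/MMP-2-/- and 985 in mdx at 1 month, and of 40.9 and 805 at 3 months, so the arrays followed their genotype labels. All 6 markers of muscle fibres lay between 11493 and 15431 on every array. Quantile scaling gives every array the same set of values, which leaves probe sets this bright little room to differ. The range is thus no measure of fibre content. For Actb, the ratio of 3' to 5' probe signal, which rises as RNA degrades, was 2.09 in mdx/MMP-2-/- and 2.36 in mdx at 3 months, and 1.05 and 1.19 at 1 month. For Gapdh the same ratio differed little with age. It was 0.935 in mdx/MMP-2-/- and 0.936 in mdx at 3 months, and 0.85 and 0.88 at 1 month.

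Lsm proteins work as rings of subunits that close around RNA. Lsm2 to Lsm7 are common to both rings, and the remaining subunit decides the place and the task. With Lsm1 the ring acts in the cytoplasm, where it binds the 3' end of deadenylated mRNA together with Patl1 and promotes removal of the cap. With Lsm8 it acts in the nucleus, where it binds the uridine-rich 3' end of U6 small nuclear RNA, a catalytic RNA of the spliceosome, and takes part in assembly of the U4/U6.U5 tri-snRNP. In the structure of the yeast rings Lsm7 sits between Lsm5 and Lsm4, and its counterpart among the canonical Sm proteins is SmG, encoded by Snrpg.

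Lsm7 lies on chromosome 10. Its start region is shown because Lsm7 is the gene on which the family was chosen, and that of Lsm6 because Lsm6 had the next lowest genotype difference among the members at 3 months. Each window runs from 250 bases before to 50 bases after a gene start of RefSeq on GRCm38.p6, printed 5' to 3' on the gene's strand. Capitals mark TGCGCA, the unit repeated in the consensus site of the transcription factor NRF1, which reads the same on both strands.
Lsm7, chr10:80855160-80855459, minus strand: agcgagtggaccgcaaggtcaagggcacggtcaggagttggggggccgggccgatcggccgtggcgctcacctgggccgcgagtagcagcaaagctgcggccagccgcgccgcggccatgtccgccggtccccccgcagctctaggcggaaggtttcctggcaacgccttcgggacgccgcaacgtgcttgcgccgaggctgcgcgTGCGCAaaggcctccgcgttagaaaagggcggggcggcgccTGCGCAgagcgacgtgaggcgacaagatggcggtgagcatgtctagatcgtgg
Lsm6, chr8:78821103-78821402, minus strand: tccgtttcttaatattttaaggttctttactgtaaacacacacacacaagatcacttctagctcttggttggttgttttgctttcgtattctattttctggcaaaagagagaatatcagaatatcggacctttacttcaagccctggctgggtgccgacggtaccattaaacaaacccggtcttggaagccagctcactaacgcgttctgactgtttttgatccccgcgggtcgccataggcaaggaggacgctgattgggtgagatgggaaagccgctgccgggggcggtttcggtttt
The Lsm7 window held 2 copies of TGCGCA and 40 CpG dinucleotides, and the Lsm6 window held 0 copies and 16 CpG dinucleotides. TGCGCA occurred in 7.76% of all 32851 windows, where the median number of CpG dinucleotides was 7. Windows were found for 6 of the 8 genes, 8 windows in all. Only those of Lsm7 and Lsm8 contained TGCGCA, and no window was found for Lsm1 or Lsm4. These are matches of letters and not measured sites.

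Lsm7 had a scaled signal of 183 in mdx/MMP-2-/- and 464 in mdx at 1 month. At 3 months the signals were 145 in mdx/MMP-2-/- and 397 in mdx. Both mdx/MMP-2-/- arrays thus lay below both mdx arrays. The signal was 2.54-fold lower in mdx/MMP-2-/- at 1 month, a log2 difference of -1.34, and 2.73-fold lower at 3 months, a log2 difference of -1.45. The differences at the 2 ages were 0.10 apart on the log2 scale. Lsm7 was represented by a single probe set, so no other probe set could be set beside it.

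Among all 12801 genes, Lsm7 ranked 14 from the lowest difference at 1 month and 9 from the lowest at 3 months. Of all genes, 0.578% were past 2-fold toward lower signal in mdx/MMP-2-/- at 1 month, 0.422% at 3 months and 0.0234% at both ages. Lsm7 was the only one of the 7 measured members among them. This count repeats the choice of the gene. In the deposited signals before scaling, Lsm7 stood at 182 in mdx/MMP-2-/- and 421 in mdx at 1 month, and at 176 and 357 at 3 months.

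**Figure D1:**
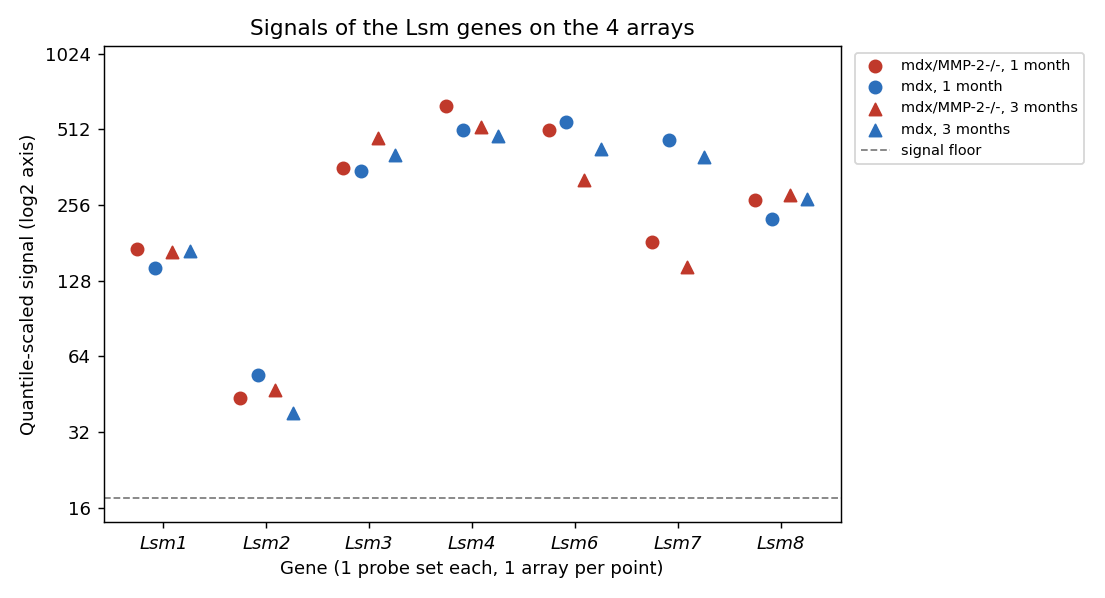
Quantile-scaled signal on a log2 axis for each of the 7 measured Lsm genes, with 1 point per array (red, mdx/MMP-2-/-; blue, mdx; circles, 1 month; triangles, 3 months) and the signal floor as a dashed line. Both red points of Lsm7, at 183 and 145, lie below both blue points, at 464 and 397, while the 4 points of Lsm2 span 38.2 to 53.9. Heights of different genes come from different probes and cannot be compared.

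The subunits that share both rings with Lsm7 showed smaller differences. Lsm4, its neighbour in the ring, had 637 in mdx/MMP-2-/- and 509 in mdx at 1 month, and 525 and 481 at 3 months. It was 1.25-fold higher at 1 month and 1.09-fold higher at 3 months, the opposite side from Lsm7. Lsm3, another shared subunit, had 360.0 in mdx/MMP-2-/- and 349 in mdx at 1 month, and 475 and 406 at 3 months. Its log2 differences were 0.04 and 0.22. At 1 month the sign was negative under median scaling (-0.09), but relative to the median of all genes that value was 0.01.

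Lsm2, a shared subunit with a probe set close to the floor, had 43.6 in mdx/MMP-2-/- and 53.9 in mdx at 1 month, and 47.2 and 38.2 at 3 months. The array of mdx/MMP-2-/- was thus the lower one at 1 month and the higher one at 3 months, by log2 differences of -0.30 and 0.30. Lsm6 had 509 in mdx/MMP-2-/- and 547 in mdx at 1 month, and 323 and 429 at 3 months. It was 1.33-fold lower in mdx/MMP-2-/- at 3 months. In the signals before scaling its log2 difference was 0.05, but relative to the median of all genes that value was -0.36.

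Lsm6 was the one member with several probe sets above the floor, and they did not move as one. At 3 months the log2 differences of its 3 probe sets were -0.41, -0.06 and -0.69. At 1 month they were -0.10, 0.03 and 0.12. The probe set with -0.41 and -0.10 is of the kind that can bind transcripts of more than 1 gene. All 9 member probe sets that exceeded the floor did so on every array, and the other 3, of Lsm1, Lsm6 and Lsm8, stayed below it on every array.

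The subunits that tell the rings apart were Lsm1 and Lsm8. Lsm1, of the cytoplasmic ring, had 171 in mdx/MMP-2-/- and 143 in mdx at 1 month, and 166 and 169 at 3 months. Lsm8, of the nuclear ring, had 268 in mdx/MMP-2-/- and 226 in mdx at 1 month, and 280.5 and 272 at 3 months. Both were slightly higher in mdx/MMP-2-/- at 1 month, 1.2-fold for Lsm1 and 1.18-fold for Lsm8. At 3 months both lay near 0, at -0.02 for Lsm1, with a positive sign under median scaling (0.07) and without scaling (0.45), and at 0.05 for Lsm8. Relative to the median of all genes, the positive values of Lsm1 were 0.03 under median scaling and 0.04 without scaling.

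**Figure D2:**
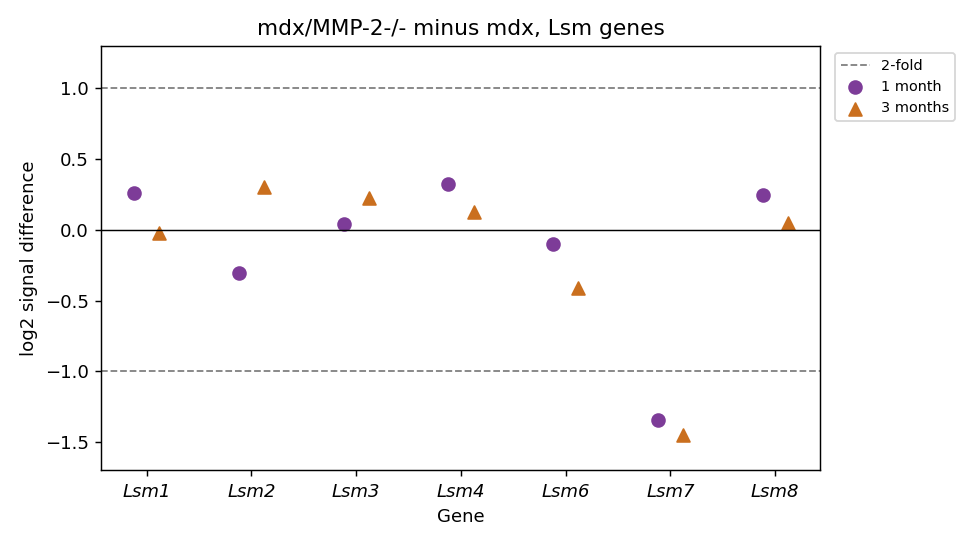
Log2 difference in signal, mdx/MMP-2-/- minus mdx, for each measured Lsm gene at 1 month (circles) and 3 months (triangles); dashed lines mark 2-fold. Lsm7 lies at -1.34 and -1.45, and the other 6 genes lie between -0.41 and 0.32.

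Besides Lsm7, 0 of the other 6 members reached 2-fold in either direction at 1 month or at 3 months, where 1.15% and 1.6% of all genes did. Their differences ran from -0.30 to 0.32 at 1 month, with a median of 0.14, and from -0.41 to 0.30 at 3 months, with a median of 0.09. The median of all genes was 0.0 at both ages. At each age 4 of these 6 members were higher and 2 were lower in mdx/MMP-2-/-. Among the scalings, 3 were higher at 1 month under median scaling, and at 3 months 5 were under median scaling and 6 without scaling. Relative to the median of all genes, these counts were 4, 5 and 5. At 1 month Lsm6 also became higher with its probe sets averaged (0.01), or without probe sets of the kind that can bind several transcripts (0.03).

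**Figure D3:**
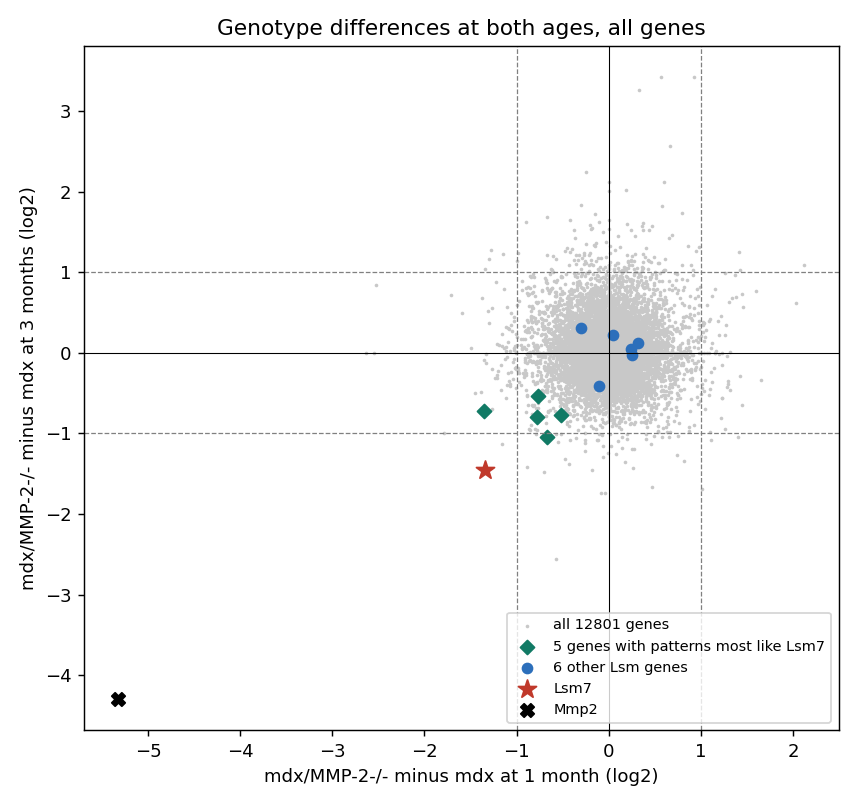
Log2 difference, mdx/MMP-2-/- minus mdx, at 1 month (horizontal axis) and at 3 months (vertical axis) for all 12801 genes (grey), with Lsm7 (star), the 6 other Lsm genes (blue), the 5 genes with patterns most like Lsm7 (green) and Mmp2 (cross); dashed lines mark 2-fold. Lsm7 lies in the corner below 2-fold on both axes, and the blue points lie within the cloud around 0. The axes share no array.

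With age, the signal of Lsm7 was 1.26-fold lower at 3 months than at 1 month in mdx/MMP-2-/- and 1.17-fold lower in mdx. Lsm6 was 1.58-fold lower at 3 months in mdx/MMP-2-/- and 1.27-fold lower in mdx. Its brightest other probe set had log2 differences of -0.46 and -0.37 with age, and its dimmest above the floor -0.14 and 0.66. At least 1.5-fold lower with age in mdx/MMP-2-/- were 6.7% of all genes.

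Lsm3 was 1.32-fold higher at 3 months in mdx/MMP-2-/- and 1.16-fold higher in mdx. Lsm8 had age differences of 0.07 in mdx/MMP-2-/- and 0.27 in mdx on the log2 scale. Lsm4 had -0.28 in mdx/MMP-2-/- and -0.08 in mdx, and both were positive under median scaling (0.03 and 0.01), as was the one in mdx/MMP-2-/- without scaling (0.09). Relative to the median of all genes, these positive values of Lsm4 were -0.16, -0.005 and -0.17. Lsm1 lay at -0.05 in mdx/MMP-2-/- and at 0.24 in mdx. Its value in mdx/MMP-2-/- was positive under median scaling (0.18) and without scaling (0.25), but relative to the median of all genes -0.004 and -0.01. Lsm2 lay at 0.11 in mdx/MMP-2-/- and -0.50 in mdx. No member reached 2-fold with age in either genotype, where 2.69% of all genes did in mdx/MMP-2-/- and 2.52% in mdx. The age and genotype differences share arrays, so they are given side by side and not related to each other. The arrays at 3 months also had the higher Actb ratios given above, while the Gapdh ratios differed little. Any part of RNA quality in the age differences was not tested.

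**Figure D4:**
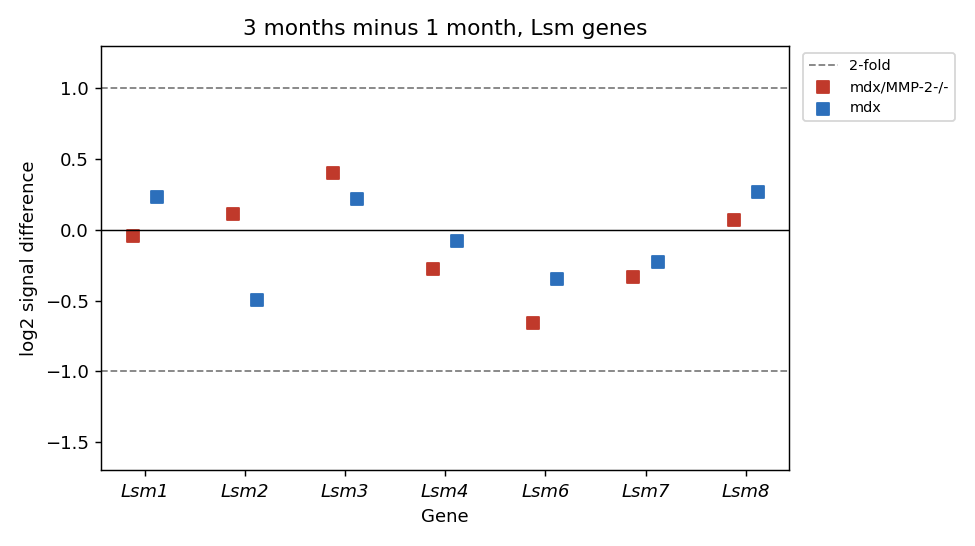
Log2 difference in signal, 3 months minus 1 month, for each measured Lsm gene in mdx/MMP-2-/- (red) and mdx (blue); dashed lines mark 2-fold. Every point lies within 2-fold, from -0.66 for Lsm6 in mdx/MMP-2-/- to 0.40 for Lsm3 in mdx/MMP-2-/-.

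The partners of the rings were examined in 5 lists of 49 genes, of which 44 were measured. With the 1 probe set that stood for each gene, none of the 44 reached 2-fold between genotypes at either age. Of all genes, 1.15% did at 1 month and 1.6% at 3 months. Another probe set of Xrn1 was past 2-fold lower at 3 months (-1.07). Without scaling 5 of them did at 3 months, and under median scaling 1 did, but 0 relative to the median of all genes. Their differences ran from -0.62 to 0.43 at 1 month and from -0.46 to 0.94 at 3 months. With age, 2 of the 44 were at least 2-fold higher in mdx/MMP-2-/-, where 1.47% of all genes were, and 0 in mdx, where 0.976% were. Under median scaling 3 were in mdx/MMP-2-/- and without scaling 4, but 2 relative to the median of all genes in both. Under quantile scaling the 2 were Snrpf (2.15-fold) and Cnot3 (2.13-fold). The other probe set of Cnot3 stayed within 2-fold, with 30.8 at 1 month and 46.6 at 3 months in mdx/MMP-2-/-.

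The canonical Sm proteins form a like ring on the other spliceosomal small nuclear RNAs, and 5 of their 7 genes were measured. At 1 month 4 of the 5 were lower in mdx/MMP-2-/-, with a median of -0.06 (all 5 under median scaling, 3 without scaling). Relative to the median of all genes, 1 of the 5 was higher under each of these scalings. At 3 months all 5 were higher under each of the 4 scalings tried, with a median of 0.17. Snrpg, picked for its role as the counterpart of Lsm7, had 808 in mdx/MMP-2-/- and 848 in mdx at 1 month, and 812 and 699.8 at 3 months. Snrpf, the counterpart of Lsm6, was the lowest of the list at 1 month (258 against 350.3) and the highest at 3 months (555 against 467). Snrpb was highest at 1 month (0.08) and Snrpd3 lowest at 3 months (0.01), and other probe sets of Snrpd3 lay the opposite way.

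Among the 6 other proteins with an Lsm domain, 2 were higher and 4 lower at each age, with medians of -0.05 at 1 month and -0.11 at 3 months, which without scaling were 0.05 and 0.32 and relative to the median of all genes -0.04 and -0.09. Lsm14a, a partner of the decapping machinery, was 1.31-fold higher in mdx/MMP-2-/- at 1 month and 1.14-fold lower at 3 months. Lsm12 was the lowest at 1 month (-0.30), but another of its probe sets stood at 0.26. Lsm10 and Lsm11 belong to the U7 particle that processes histone mRNA. Lsm10 was the highest at 3 months (0.15). Lsm11 was the lowest at 3 months (18.4 against 23.8), with at most 25.5 on any array for either of its probe sets. At 1 month it stood at 0.37, with its mdx signal below the floor, and its other probe set at -0.32.

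The decapping and 5' decay factors, which act with the cytoplasmic ring, numbered 8, all measured. Of these 6 were higher at 1 month, with a median of 0.11. Under median scaling 4 were, but 6 relative to the median of all genes. At 3 months 5 of the 8 lay below 0, and the median was -0.23. Without scaling all 8 lay above 0 at 3 months, and relative to the median of all genes 5 were again lower, with a median of -0.16. Dcp2, the decapping enzyme, was 1.25-fold higher in mdx/MMP-2-/- at 1 month (125 against 101) and 1.29-fold lower at 3 months (84.9 against 109). Edc3, an enhancer of decapping, was 1.44-fold higher at 3 months, and Dcp1a, a cofactor of Dcp2, was 1.29-fold lower. Xrn1, the 5' to 3' exonuclease, lay at -0.19 at 1 month and 0.19 at 3 months. Its other probe set lay on the opposite side at both ages, at 0.59 and -1.07. The latter is past 2-fold, with 17.4 in mdx/MMP-2-/-, at the floor, against 36.6 in mdx. Patl1, picked as the partner that binds the ring itself, differed by -0.16 at 1 month and -0.11 at 3 months.

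Deadenylases shorten the poly(A) tail ahead of decapping, and 9 of 10 were measured. At 1 month the median was -0.02 with 4 of the 9 higher, against -0.13 with 2 higher under median scaling and 0.10 with 6 higher without scaling. At 3 months it was 0.05 with 5 higher, against 0.12 with 6 higher under median scaling and 0.51 with all 9 higher without scaling. Relative to the median of all genes it lay from -0.02 to 0.01 at 1 month and from 0.05 to 0.10 at 3 months. Cnot3, a subunit of the CCR4-NOT complex, was 1.54-fold lower in mdx/MMP-2-/- at 1 month (71.7 against 110.4) and 1.73-fold higher at 3 months (152 against 88.0). The other probe set of Cnot3 had log2 differences of -0.70 at 1 month and 0.21 at 3 months. Cnot7, a catalytic subunit, lay lowest at 3 months (-0.22). Parn, a poly(A)-specific ribonuclease, was highest at both ages, 1.31-fold at 1 month and 1.83-fold at 3 months, but at 3 months its other probe set lay at -0.07.

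Factors of U6 and the tri-snRNP, which act with the nuclear ring, were measured for 16 of 18 genes. At 1 month the median was 0.02 with 9 of the 16 higher, against -0.10 with 5 higher under median scaling and 0.13 with 12 higher without scaling. At 3 months it was 0.07 with 10 higher, against 0.14 with 12 higher under median scaling and 0.53 with all 16 higher without scaling. Relative to the median of all genes, these medians lay from 0.01 to 0.04 at 1 month and from 0.07 to 0.12 at 3 months. Usb1, the enzyme that trims the 3' end of U6 to which the ring binds, had 50.2 in mdx/MMP-2-/- and 43.7 in mdx at 1 month, and 50.6 and 26.3 at 3 months. Its 1.92-fold difference at 3 months was the largest of the 44 partner genes. Sart3, picked because it helps to join U6 with U4, was higher by 0.36 and 0.35. Prpf4, of the U4/U6 particle, was highest at 1 month (0.43) and lowest at 3 months (-0.46), and its other probe set gave -0.79 and 0.45. Snrnp40 was lowest at 1 month (-0.50), where its other probe set gave 0.45.

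**Figure D5:**
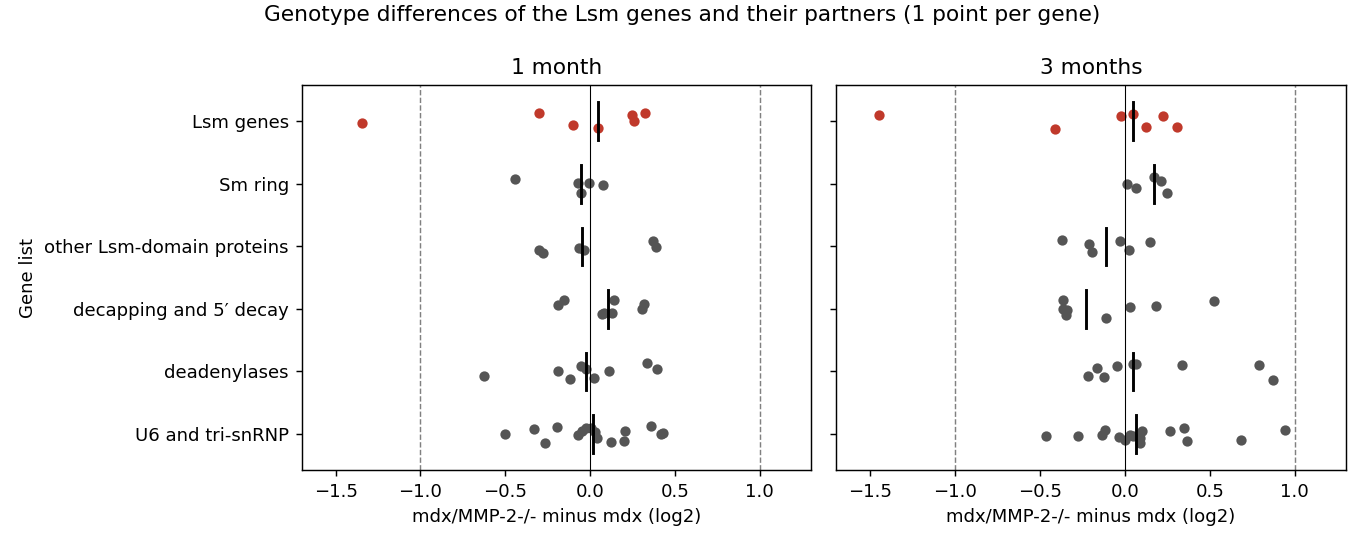
Log2 difference, mdx/MMP-2-/- minus mdx, of each measured gene (points, jittered vertically) in the Lsm family and the 5 partner lists at 1 month (left) and 3 months (right), with list medians as vertical bars and 2-fold as dashed lines. Lsm7, at -1.34 and -1.45, is the one point beyond 2-fold.

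Patterns like that of Lsm7 were looked for among 7739 genes off the floor on all 4 arrays with at least 85.4 on 1 of them, by the distance between log2 profiles over the 4 arrays after each was centred on its mean. With 4 arrays this describes shape and size and carries no test. The nearest was Ano1, a calcium-activated chloride channel, at a distance of 0.55. It had 65.2 in mdx/MMP-2-/- and 166 in mdx at 1 month, and 57.8 and 95.6 at 3 months. Pkn3, a protein kinase, followed at 0.57, with 60.4 against 95.6 at 1 month and 45.8 against 94.2 at 3 months. Chad, chondroadherin of cartilage matrix, lay at 0.64, with 78.9 against 136 and 73.1 against 127.

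Next came Oxa1l, an inner mitochondrial membrane insertase, at 0.77, and Plpp7 at 0.79. Oxa1l had 82.2 against 139 at 1 month and 79.2 against 115 at 3 months, though at 3 months another probe set above the floor lay the opposite way (51.9 against 43.0). Plpp7 had 295 against 421 and 193 against 329. In all 5 genes both mdx/MMP-2-/- arrays lay below both mdx arrays, an order that their choice by likeness to Lsm7 favours. None of the 5 passed 2-fold at both ages. Ano1 was 2.55-fold lower at 1 month and 1.65-fold lower at 3 months, and Pkn3 1.58-fold and 2.06-fold lower. None of the 5 lies on chromosome 10.

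The measured genes next to Lsm7 on chromosome 10 lay closer to 0. Sppl2b, an intramembrane protease and the next protein-coding gene after Lsm7 by coordinate, had 183 in mdx/MMP-2-/- and 168 in mdx at 1 month, and 150.0 and 152 at 3 months. Lingo3, the next protein-coding gene before Lsm7 by coordinate, had 58.0 against 47.6 and 46.8 against 43.5. Oaz1, an inhibitor of polyamine synthesis, had 6881 against 6676 and 7347 against 7033. All lay within 1.22-fold between genotypes at either age, and no probe set was found for Tmprss9. Mmp2 lies on chromosome 8, as do 3 of the Lsm genes, Lsm1, Lsm4 and Lsm6, whose differences were given above.

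Markers of other cells differed between the arrays as well. At 3 months all 6 macrophage markers were higher in mdx/MMP-2-/-, with summed signals of 7215 in mdx/MMP-2-/- and 4685 in mdx, and all 3 measured neutrophil markers were higher, with sums of 612 and 65.6. Such sums are weighted toward the brightest probe sets, as toward Lyz2 (3613 in mdx/MMP-2-/- at 3 months) among the macrophage markers, and do not measure cell content. At 1 month 1 of the 6 macrophage markers was higher, with sums of 6355 and 6727, and 2 of the 3 neutrophil markers, with sums of 154 and 125. Itgam of the macrophage list was at the floor in mdx/MMP-2-/- at 1 month and Csf3r of the neutrophil list in mdx at 3 months. Markers of cycling cells, 3 measured, had sums of 229 in mdx/MMP-2-/- and 169 in mdx at 3 months, and of 385 and 384 at 1 month. At 3 months endothelial sums were 712 and 728 and fibroblast sums 12862 and 11644, and at 1 month 1209 and 1030 (endothelial) and 14244 and 14985 (fibroblast). Of 4 endothelial markers, 1 was higher in mdx/MMP-2-/- at 3 months and 3 at 1 month. The 1 higher at 3 months was Cdh5 (390 against 318), the brightest of them. Of 4 fibroblast markers, 4 were higher at 3 months and 2 at 1 month. The 1 measured adipocyte marker, Adipoq, had 133 against 237 at 1 month and 129 against 104 at 3 months, and the 1 measured red cell marker, Alas2, 25.1 against 34.3 and 27.6 against 38.5. The part of these cells in the differences of the Lsm genes was not tested, and in whole muscle fewer cells of a type and less RNA per cell cannot be told apart.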

How the data were processed

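The deposited unit is intensity: linear MAS5 signals of probe sets, for which the submitters' processing notes name Affymetrix Expression Console. Versions and any scaling target are not given in the sources used here. Of 45101 probe sets, 64 controls were left out. Of the rest, 34945 had 1 gene symbol, 932 several and 9160 none. Gene identifiers of 34741 matched the RefSeq table of GRCm38.p6, which changed 0 symbols.

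Signals were quantile scaled with limma 3.58.1 in R 4.3.3 and raised to a floor of 17.4. The brightest probe set by mean log2 signal stood for each gene, and genes at the floor on every array were left out. Log2 differences, folds and counts at 2-fold were taken with pandas 2.3.3 and numpy 2.4.6 under Python 3.11.15. With 1 array per group no test was run, and precision is limited by the number of arrays. The counting was tested on simulated data.

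The family, the partner lists and the rules were chosen with earlier results of these data known. Named were all members, the genes highest and lowest in each partner list at each age, the 5 genes nearest to Lsm7 with predicted and unnamed genes passed over, Mmp2, and 2 protein-coding neighbours on each side of Lsm7. Snrpg, Patl1 and Sart3 were added for their role after their values were seen. Alternatives were median scaling, cyclic loess, no scaling, a floor at the 60th or at the 40th percentile, a pseudocount of 4.36 in place of the floor, averaging a gene's probe sets, use of no probe set ending in _x_at or _s_at, and a threshold of 1.5-fold.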

Additional observations from a re-analysis of the deposited data

Results flagged for a closer look

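The genotype difference changed sign between the ages in 19 of 40 genes that the text names, and in 45.2% of all genes. With 1 array per group these changes were not tested. Each gene is given with its log2 difference, mdx/MMP-2-/- minus mdx, at each age, and the value at 3 months minus that at 1 month. Among the Lsm genes these were Lsm1 (0.26 at 1 month, -0.02 at 3 months, -0.28 apart) and Lsm2 (-0.30 at 1 month, 0.30 at 3 months, 0.61 apart).

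Other genes higher at 3 months and lower at 1 month were Adipoq (-0.84 at 1 month, 0.32 at 3 months, 1.15 apart), Cnot3 (-0.62 at 1 month, 0.79 at 3 months, 1.42 apart), Csf3r (-0.20 at 1 month, 1.58 at 3 months, 1.78 apart), Itgam (-0.14 at 1 month, 0.25 at 3 months, 0.39 apart), Lsm10 (-0.03 at 1 month, 0.15 at 3 months, 0.18 apart), Lsm12 (-0.30 at 1 month, 0.03 at 3 months, 0.32 apart), Snrnp40 (-0.50 at 1 month, 0.27 at 3 months, 0.77 apart), Snrpd3 (-0.01 at 1 month, 0.01 at 3 months, 0.02 apart), Snrpf (-0.44 at 1 month, 0.25 at 3 months, 0.69 apart), Snrpg (-0.07 at 1 month, 0.21 at 3 months, 0.28 apart) and Xrn1 (-0.19 at 1 month, 0.19 at 3 months, 0.38 apart). Genes lower at 3 months and higher at 1 month were Dcp1a (0.07 at 1 month, -0.37 at 3 months, -0.44 apart), Dcp2 (0.32 at 1 month, -0.36 at 3 months, -0.68 apart), Lsm11 (0.37 at 1 month, -0.37 at 3 months, -0.74 apart), Lsm14a (0.39 at 1 month, -0.19 at 3 months, -0.58 apart), Prpf4 (0.43 at 1 month, -0.46 at 3 months, -0.89 apart) and Sppl2b (0.12 at 1 month, -0.02 at 3 months, -0.14 apart). Another probe set lay on the opposite side at 1 month for Lsm11 (-0.32), Lsm12 and Snrnp40, and at both ages for Prpf4, Snrpd3 and Xrn1.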

How the results depend on the processing

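The difference of Lsm7 was negative and past 2-fold under all 8 alternatives other than the 1.5-fold threshold. It ran from -1.44 to -1.21 at 1 month and from -1.49 to -1.02 at 3 months. The other floors, the averaging of probe sets and the omission of _x_at and _s_at could not change it. Lsm7 has a single probe set, well above every floor and of neither kind. The smallest difference at each age came from the deposited signals without scaling. That choice moved the median of all genes by 0.09 at 1 month and 0.41 at 3 months, and relative to this median the ranges of Lsm7 were -1.34 to -1.30 and -1.49 to -1.42. The number of members at or past the threshold stayed at 1 in each genotype comparison and at 0 in each age comparison, except that at a threshold of 1.5-fold it was 1 (Lsm6) for age in mdx/MMP-2-/-. For the other 6 members, too, the other floors could not change a value, since all signals used lay above them. Averaging could not change Lsm2, Lsm3 or Lsm4, with 1 probe set each, and omitting _x_at and _s_at could change only Lsm6. Of 192 values of these 6 members under these 8 alternatives, the fixed ones included, 11 changed sign. Relative to the median of all genes, 4 did so. For Lsm6, at 1 month these were the mean of its probe sets (0.01) and the setting without _x_at and _s_at (0.03). Median scaling moved the median of all genes by -0.10 at 1 month and by 0.19 with age in mdx/MMP-2-/-, and no scaling moved it by 0.26 with age in mdx/MMP-2-/-. The share of all genes past 2-fold ranged from 0.516% to 3.25% at 1 month, from 0.822% to 6.74% at 3 months, from 1.49% to 4.86% for age in mdx/MMP-2-/- and from 1.44% to 5.11% for age in mdx. Genes past 2-fold in the higher and lower direction numbered 73 and 74 at 1 month (131 and 35 unscaled), 151 and 54 at 3 months (855 and 13 unscaled, 216 and 39 under median scaling), 188 and 156 for age in mdx/MMP-2-/- (466 and 92 unscaled, 350 and 106 under median scaling) and 125 and 198 for age in mdx (67 and 253 unscaled). No paired analysis was possible because each group had 1 array. For the same reason no replicate could be left out, and the signal over the floor limits Lsm2 most, at 38.2 to 53.9 against a floor of 17.4.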

Other observations

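One probe set carries the symbols of both Gm7846 and Lsm5, so its signal cannot be assigned to either gene. It read 465 in mdx/MMP-2-/- and 512 in mdx at 1 month, and 534 and 465 at 3 months, log2 differences of -0.14 and 0.20.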
